A study of Mus musculus with 16 samples.

Results

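The transcriptome of the ileum of wild-type (WT) mice fed ethanol (EtOH) was set against that of pair-fed (PF) WT mice. The libraries were chosen by genotype and diet alone. They were 7 of the 16 libraries of the series, 3 from WT EtOH mice and 4 from WT PF mice, and the other 9 came from fat-1 mice, which carry a transgene of a nematode fatty acid desaturase. Both WT groups were male littermates of the fat-1 mice on the C57BL/6 background, without the transgene, and were 8 to 10 weeks old when the diets began. WT EtOH mice received a Lieber-DeCarli liquid diet whose ethanol content was raised in steps of 1, 2, 4 and 5% and then held at 6% (v/v) for 3 weeks. WT PF mice received the same liquid diet in matched amounts, with maltose dextrin in place of the ethanol calories. RNA came from a flushed piece of terminal ileum of about 1.5 cm, so epithelium, immune cells and muscle were sequenced together, and each library was 1 mouse.

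The small intestine is zoned along its length. Its upper part, marked by the transcription factor GATA4, digests and absorbs lactose, glucose, fructose and most dietary fat, whereas the ileum takes up bile acids and the cobalamin carrier complex and is rich in Paneth and goblet cells. Absorptive enterocytes split sugars and peptides at the brush border, carry the products inward and package fat into chylomicrons, while goblet cells secrete mucus, Paneth cells secrete antimicrobial peptides and tuft cells sense luminal signals. Ethanol reaches the ileum from the lumen and from the blood, and chronic intake is known for its effects on the gut barrier and on nutrient absorption.

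Between 9344942 and 11438539 read pairs were assigned to genes in each of the 7 libraries, and 13250 of 21965 genes had enough counts to be tested. Ileal identity was checked on *Fabp6*, the ileal bile acid binding protein, which had 826, 1346, 2884 and 3657 CPM in WT PF and 3599.6, 4023 and 3863 CPM in WT EtOH mice. It was therefore abundant in every mouse, although WT PF 1 and WT PF 2 lay below the other 5. Principal components were computed over the 7 libraries. On the first, with 51.9% of the variance, WT PF 1 to 3 lay between -36.1 and -26.2, WT PF 4 at 0.870 and the 3 WT EtOH mice between 29.1 and 31.7. WT PF 4 thus stood apart from its group, toward the WT EtOH mice, and on the second component, with 15.2% of the variance, WT EtOH 2 stood apart at 31.4 while WT EtOH 1 and WT EtOH 3 lay at -8.98 and -21.9. Libraries were numbered with the PF mice first and the EtOH mice after them, so an effect of library order and one of diet cannot be told apart.

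The edgeR quasi-likelihood test called 1103 differentially expressed genes (DEGs, Benjamini-Hochberg adjusted p of 0.05 or less), 8.32% of the genes tested. Of these, 534 were higher in WT EtOH mice, 4.03% of the genes tested, and 569 were lower, 4.29% of the genes tested. The changes were at least 2-fold in 230 DEGs, of which 100 were higher and 130 lower, and the median size of the log2 fold change was 0.64 among DEGs against 0.21 among all genes tested. All 3 WT EtOH mice lay above all 4 WT PF mice for 12.9% of the genes tested and below them for 12% of the genes tested. Among DEGs the groups did not overlap in 1088 cases.

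The number of DEGs depended on single mice. It was 67 without WT PF 1, 75 without WT PF 2, 96 without WT PF 3, 25 without WT EtOH 1 and 54 without WT EtOH 3, against 1179 without WT EtOH 2 and 2242 without WT PF 4. WT PF 4 was the lowest WT PF mouse in 474 of the 569 lower DEGs, against 30.8% of all genes tested, and the highest WT PF mouse in 285 of the 534 higher DEGs, against 30.2% of all genes tested. With both WT PF 4 and WT EtOH 2 left out, 3059 DEGs were called. A fit of all 16 libraries, in which the fat-1 mice add to the estimate of spread, called 11 DEGs for the same contrast, 0.0796% of the genes tested there, and 10 of them were among the 1103. Of 177 genes picked to be named, 116 were DEGs. Of these 116, 93 lost their call without WT PF 1, 93 without WT PF 2, 89 without WT PF 3, 107 without WT EtOH 1 and 99 without WT EtOH 3, against 46 without WT EtOH 2 and 4 without WT PF 4. The calls within the gene lists described next were lost in the same way. Without any 1 of the 5 mice other than WT EtOH 2 and WT PF 4, at most 3 genes of a list fell, and at most 1 gene of a list rose outside the lists of Hox genes (3 to 7), smooth muscle (2 to 5) and inducible epithelial defence (1 to 3). No DEG changed sign when any 1 mouse was left out, and 20 DEGs were called without each of the 7 mice in turn.

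**Figure D1:**
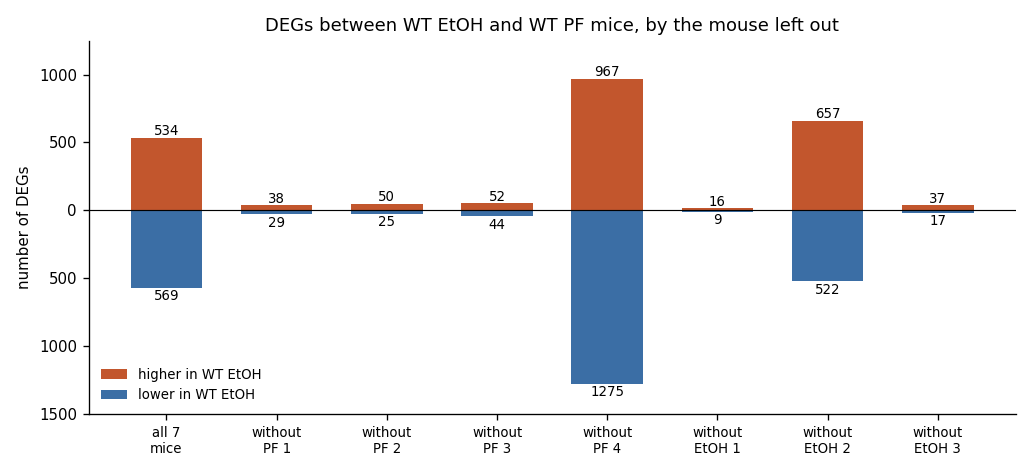
Number of genes higher (orange) and lower (blue) in WT EtOH than in WT PF mice at an adjusted p of 0.05 or less, in the fit of all 7 mice and with each mouse left out in turn. Bars start at 0 and genes lower in WT EtOH mice are drawn downward. Leaving out WT PF 4 raises the count to 2242, and leaving out WT EtOH 1 lowers it to 25.

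Genes were then grouped into 28 pathway lists and 17 cell type or region marker lists, and each list was described by how many of its tested members rose or fell and by its median log2 fold change, against a median of 0.02 over all genes tested. The lists with the lowest medians held proximal small intestine markers, sugar transport genes, red blood cell genes, disaccharidases and chylomicron genes, and those with the highest medians held large intestine markers, Hox genes, tuft cell markers and smooth muscle genes. In bulk tissue, fewer cells of a type and less RNA per cell cannot be told apart. Without each mouse in turn, the medians of the 9 lists just named kept their direction. The medians of 12 of the 45 lists changed sign without some 1 mouse, namely those of sterol, retinoid, ion transport, tight junction, transcription factor, unfolded protein response, NRF2, circadian clock, crypt stem cell, T cell, B cell and adipocyte genes, so no direction is read from them. Nor is anything read about a list from a single call in it, which in lists of about this size is close to the 8.32% called among all genes tested.

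**Figure D2:**
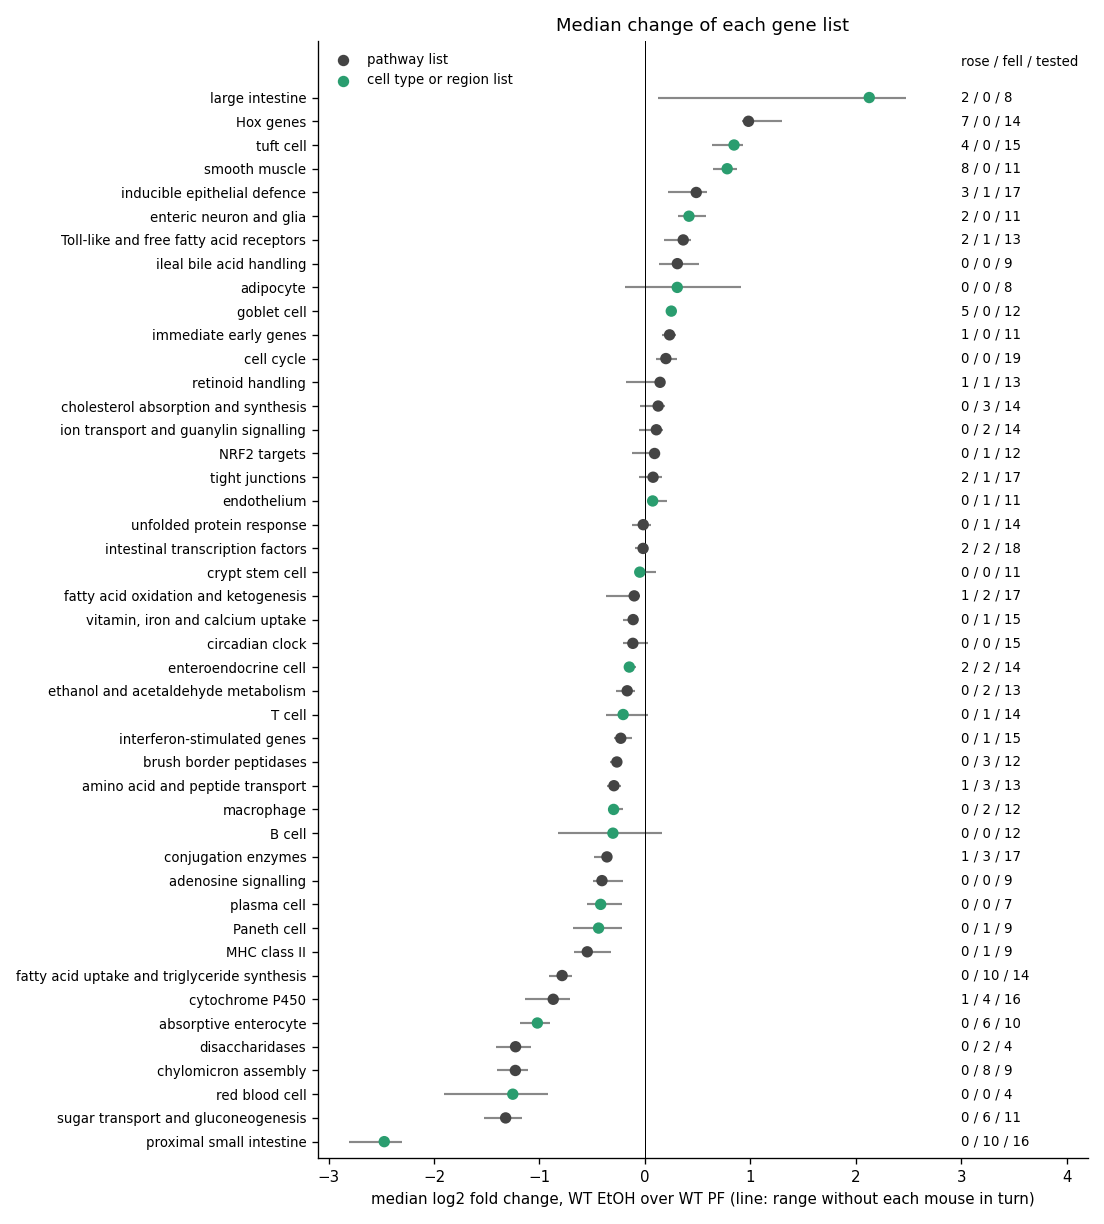
Median log2 fold change (WT EtOH minus WT PF, horizontal axis) of the tested members of each gene list, with a line for the range without each mouse in turn and, at the right, the number that rose, fell and were tested. The proximal small intestine list is lowest at -2.47, and the line of the large intestine list, at 2.13 with all 7 mice, reaches down to 0.13.

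Genes for the digestion of sugar were lower in WT EtOH mice. Of 4 disaccharidases tested, 2 fell and none rose, the median log2 fold change was -1.23, and for all 4 every WT EtOH mouse lay below every WT PF mouse (against 12% of all genes tested). *Lct* encodes lactase, which splits milk sugar, and had 1167, 588, 642 and 77.1 CPM in WT PF and 0.265, 0.414 and 0.414 CPM in WT EtOH mice (log2 fold change -10.68, SE 1.49, adjusted p = 0.0252). The WT EtOH values rest on 3, 4 and 5 reads, at or close to the floor of 3 reads, against 753 to 10918 reads in WT PF mice, and WT PF 4 was the lowest of its group. *Sis*, which encodes sucrase-isomaltase, the enzyme for sucrose and starch fragments, had 8334, 6588, 7318 and 3873 CPM in WT PF and 2762, 1878 and 3000.3 CPM in WT EtOH mice (log2 fold change -1.36, SE 0.27, adjusted p = 0.0269). It stayed abundant in every mouse, and the groups did not overlap. Without WT EtOH 2, *Lct* had an adjusted p of 0.0522 and *Sis* one of 0.0403, so 1 of the 4 fell, whereas without WT PF 4 all 4 fell. None was called without any 1 of the other 5 mice.

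Lactase and GATA4 mark the upper small intestine, and the stretch before the *Lct* start site is shown because GATA factors are known to act on it. *Lct* lies on chromosome 1 of GRCm38 (chr1:128284756-128328318, minus strand). The 250 bases before its RefSeq start (GRCm38.p6, chr1:128328319-128328568, minus strand, 5′ to 3′) are printed with capitals where the letters AGATAA or TGATAA stand on either strand, next to those of *Slc2a2* (chr3:28697653-28697902, plus strand) and *Apoa4* (chr9:46240594-46240843, plus strand), which also fell.
Lct: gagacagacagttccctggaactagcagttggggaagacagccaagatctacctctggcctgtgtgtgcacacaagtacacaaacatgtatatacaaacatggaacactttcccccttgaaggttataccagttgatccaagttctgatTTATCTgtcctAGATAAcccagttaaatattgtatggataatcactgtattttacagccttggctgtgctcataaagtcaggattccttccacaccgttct
Slc2a2: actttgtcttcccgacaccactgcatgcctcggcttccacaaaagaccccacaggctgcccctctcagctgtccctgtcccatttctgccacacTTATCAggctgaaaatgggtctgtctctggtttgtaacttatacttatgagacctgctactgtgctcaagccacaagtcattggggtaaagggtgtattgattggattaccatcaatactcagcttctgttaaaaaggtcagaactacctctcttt
Apoa4: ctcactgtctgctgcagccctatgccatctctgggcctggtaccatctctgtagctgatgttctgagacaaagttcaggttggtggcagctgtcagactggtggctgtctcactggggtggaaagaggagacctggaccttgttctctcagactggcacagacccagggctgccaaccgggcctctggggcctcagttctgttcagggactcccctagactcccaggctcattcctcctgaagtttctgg
The *Lct* window holds 2 matches, which begin 101 and 90 bases before the start, the *Slc2a2* window holds 1, which begins 156 bases before it, and the *Apoa4* window holds none. In the annotation used for gene positions, *Apoa4* begins at chr9:46240696, inside its window. Part of that window thus lies within the gene, unlike those of *Lct* and *Slc2a2*, so its lack of a match is not a like measure. Such letters stood in 11.9% of the windows of the genes tested (1248 of 10453 with a window), in 14.5% of those of lower DEGs (64 of 441), in 11.3% of those of higher DEGs (46 of 408) and in 24.8% of those of DEGs lower by 2-fold or more (25 of 101). Over all genes with a window, tested or not, the share was 18.8% (5092 of 27025). DEGs higher by 2-fold or more were not counted, and the difference between these shares was not tested. A match is a run of letters and no measured binding site.

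At the brush border, 3 of 12 peptidases tested fell and none rose, with a median log2 fold change of -0.27. *Ggt1*, which breaks down glutathione, had 879, 1015, 862 and 702 CPM in WT PF and 620.0, 611 and 491 CPM in WT EtOH mice (log2 fold change -0.59, SE 0.14, adjusted p = 0.0353). *Cndp2*, a dipeptidase, averaged 1669.6 ± 239.9 CPM (SD, n = 4) in WT PF and 1148 ± 32 CPM (SD, n = 3) in WT EtOH mice (log2 fold change -0.54, SE 0.13, adjusted p = 0.0353). For both the groups were separate. *Anpep*, the most abundant peptidase measured, had 9858, 10165, 10688 and 10443 CPM in WT PF and 12006, 10581 and 10395 CPM in WT EtOH mice, with overlapping groups (adjusted p = 0.609). *Ggt1* was the 1 peptidase of the 12 called without WT EtOH 2 (adjusted p = 0.0414), and 7 fell without WT PF 4, but none without any 1 of the other 5 mice.

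Of 11 genes for moving and metabolising sugar, 6 fell and none rose, with a median log2 fold change of -1.32. *Slc2a2*, the basolateral exporter of glucose and fructose (chr3:28697903-28731359, GRCm38, plus strand), had 479, 247, 277 and 51.2 CPM in WT PF and 5.39, 4.45 and 8.94 CPM in WT EtOH mice (log2 fold change -5.37, SE 0.94, adjusted p = 0.0353). The WT EtOH mice were all below 10 CPM and WT PF 4 was again the lowest of its group. *Slc5a1*, the sodium-coupled glucose transporter of the brush border, had 4686, 3853, 2903 and 2245 CPM in WT PF and 1866, 1589 and 1692 CPM in WT EtOH mice (log2 fold change -0.99, SE 0.23, adjusted p = 0.0353). Its groups did not overlap, although WT PF 4 lay near the WT EtOH mice.

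Of the genes of fructose use, *Khk* (ketohexokinase, which phosphorylates fructose) and *Tkfc* (triokinase) fell. *Khk* had 418, 389, 315 and 170.0 CPM in WT PF and 107, 112 and 99.3 CPM in WT EtOH mice (log2 fold change -1.60, SE 0.30, adjusted p = 0.0308), with no overlap. *Tkfc* had 618, 539, 424 and 393 CPM in WT PF and 189, 201 and 206 CPM in WT EtOH mice (log2 fold change -1.31, SE 0.15, adjusted p = 0.01). *Tkfc* was called without each mouse in turn; 20% of its exon bases lie under a gene of the other strand, and whether the counting used strand is not stated. *G6pc*, the last enzyme of glucose release, had 18, 36.7, 26.1 and 9.72 CPM in WT PF and 1.68, 3.42 and 5.54 CPM in WT EtOH mice (log2 fold change -2.65, SE 0.59, adjusted p = 0.0462), and the groups stood apart. *Fbp1*, which acts earlier in gluconeogenesis, averaged 29 ± 15.4 CPM (SD, n = 4) in WT PF and 9.81 ± 1.86 CPM (SD, n = 3) in WT EtOH mice and was not called (adjusted p = 0.0818). Without WT EtOH 2, 2 of the 11 fell, and without WT PF 4, 10 fell, but 1 fell without each of the other 5 mice in turn.

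**Figure D3:**
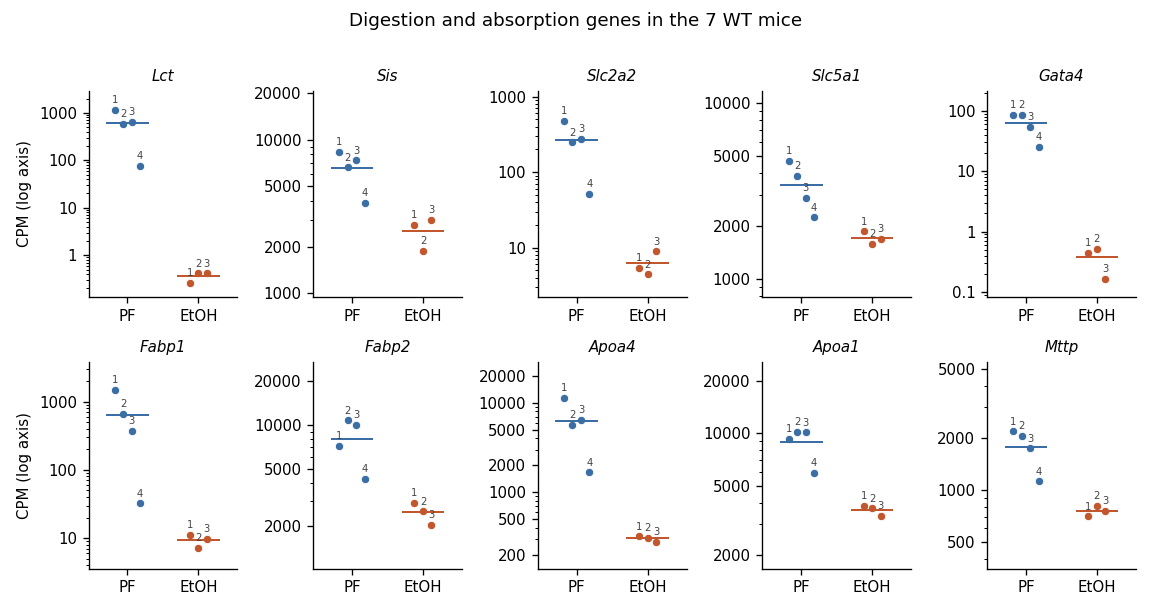
CPM (log axis) of digestive, absorptive and lipid genes in each of the 7 WT mice, numbered, with the group mean as a line. The WT EtOH mice lie below the WT PF mice for each gene shown, and WT PF 4 is the lowest WT PF mouse in every panel.

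Amino acid transporters moved in both directions. Of 13 tested, 3 fell and 1 rose, with a median log2 fold change of -0.29. *Slc7a8*, which exports neutral amino acids to the blood, had 251, 203, 233 and 84.3 CPM in WT PF and 56.4, 63.4 and 63.5 CPM in WT EtOH mice (log2 fold change -1.65, SE 0.38, adjusted p = 0.05). *Slc3a2*, the heavy chain with which such transporters pair, averaged 336 ± 46.8 CPM (SD, n = 4) in WT PF and 201 ± 24.7 CPM (SD, n = 3) in WT EtOH mice (log2 fold change -0.73, SE 0.13, adjusted p = 0.0189). *Slc7a15*, of the same transporter family as *Slc7a8*, averaged 172 ± 16.1 CPM (SD, n = 4) in WT PF and 116 ± 10.1 CPM (SD, n = 3) in WT EtOH mice (log2 fold change -0.57, SE 0.10, adjusted p = 0.0189). The groups did not overlap for these 3. *Slc1a1*, the glutamate and aspartate transporter, had 151, 138, 174 and 206 CPM in WT PF and 276, 234 and 263 CPM in WT EtOH mice (log2 fold change 0.63, SE 0.13, adjusted p = 0.027). All WT EtOH mice lay above all WT PF mice there, and 31.9% of its exon bases lie under a gene of the other strand. *Slc6a14*, a broad neutral and cationic amino acid transporter, had 136, 18.3, 7.71 and 14.7 CPM in WT PF and 206, 322 and 351 CPM in WT EtOH mice. WT PF 1 was far above the other 3 WT PF mice, and the difference was not called (adjusted p = 0.175). *Slc6a19*, the main neutral amino acid importer, overlapped between groups, with means of 1456 ± 235 CPM (SD, n = 4) in WT PF and 1333 ± 253 CPM (SD, n = 3) in WT EtOH mice.

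Among the pathway lists, those of fat uptake and chylomicron assembly had the largest shares of genes that fell in the edgeR fit of all 7 mice. This order was not kept without WT PF 4, when all 4 disaccharidases and 10 of 11 sugar genes fell. Of 14 genes for fatty acid uptake and triglyceride synthesis, 10 fell and none rose (median log2 fold change -0.78), and of 9 chylomicron genes tested, 8 fell and none rose (median -1.23). Without WT EtOH 2, 9 and 6 fell, and without WT PF 4, 11 and 8 fell. Most of these calls were lost without any 1 of the other 5 mice. Of the uptake list, 1 fell without WT PF 1, WT EtOH 1 or WT EtOH 3 and 3 fell without WT PF 2 or WT PF 3, and of the chylomicron list, 1 fell without WT PF 1, 2 or 3 and none without WT EtOH 1 or WT EtOH 3. The chylomicron genes summed to between 8208 and 8527 CPM in WT EtOH mice and to more than that in every WT PF mouse.

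*Plb1*, a brush border phospholipase that frees fatty acids in the lumen, had 348, 862, 773 and 305 CPM in WT PF and 1.5, 2.9 and 6.12 CPM in WT EtOH mice (log2 fold change -7.32, SE 0.76, adjusted p = 0.0179). No WT EtOH mouse came near a WT PF mouse. *Fabp2*, the intestinal fatty acid binding protein, had 7162, 10768, 10024 and 4262 CPM in WT PF and 2905, 2541 and 2054 CPM in WT EtOH mice (log2 fold change -1.68, SE 0.31, adjusted p = 0.0261). *Fabp1*, its liver-type relative, had 1509.7, 662, 377 and 32.4 CPM in WT PF and 11.2, 7.14 and 9.85 CPM in WT EtOH mice. *Fabp1* varied widely among WT PF mice, with WT PF 4 lowest, and was not called (adjusted p = 0.0674), although no WT EtOH mouse reached any WT PF mouse. *Acsl5*, which activates fatty acids with coenzyme A, had 2016, 1876, 2026 and 1194 CPM in WT PF and 907, 704 and 814 CPM in WT EtOH mice (log2 fold change -1.13, SE 0.19, adjusted p = 0.0183). *Dgat1*, which adds the last fatty acid to triglyceride, had 864, 940.0, 864 and 534 CPM in WT PF and 405, 427 and 358 CPM in WT EtOH mice (log2 fold change -1.01, SE 0.18, adjusted p = 0.0205). For both enzymes WT PF 4 lay between its group and the WT EtOH mice.

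In the chylomicron list, *Mttp*, the protein that loads triglyceride onto apolipoprotein B, had 2181, 2058, 1736 and 1121 CPM in WT PF and 701, 807 and 759 CPM in WT EtOH mice (log2 fold change -1.23, SE 0.21, adjusted p = 0.0189). *Apoa1*, the main apolipoprotein of high density lipoprotein, had 9319, 10234, 10121 and 5916 CPM in WT PF and 3832, 3717 and 3347 CPM in WT EtOH mice (log2 fold change -1.29, SE 0.19, adjusted p = 0.0153). It fell without 5 of the 7 mice in turn. *Apoa4*, secreted on chylomicrons after a fat meal, had 11314, 5698, 6424 and 1676 CPM in WT PF and 323, 312 and 282 CPM in WT EtOH mice (log2 fold change -4.36, SE 0.69, adjusted p = 0.0272). *Apoc3*, which slows triglyceride clearance, had 319, 216, 189.6 and 51.4 CPM in WT PF and 14.4, 18.1 and 11.1 CPM in WT EtOH mice (log2 fold change -3.74, SE 0.70, adjusted p = 0.0385). WT EtOH mice were far below all WT PF mice for both, and neither was called without WT EtOH 2 (adjusted p = 0.0575 and 0.074). These 3 genes are neighbours on chromosome 9 (chr9:46228580-46243459, GRCm38), and 69.8% of the exon bases of *Apoa4* lie under genes of the other strand. *Creb3l3*, a membrane-bound transcription factor known to drive apolipoprotein genes, had 543, 544, 426 and 242 CPM in WT PF and 115, 119.6 and 93.4 CPM in WT EtOH mice (log2 fold change -2.00, SE 0.29, adjusted p = 0.019), with no overlap.

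Among sterol genes 3 of 14 fell and none rose, and the median log2 fold change was 0.13, or -0.02 without WT PF 2 and -0.05 without WT EtOH 1. *Npc1l1*, the cholesterol importer, averaged 1042 ± 137 CPM (SD, n = 4) in WT PF and 676 ± 116 CPM (SD, n = 3) in WT EtOH mice (log2 fold change -0.62, SE 0.15, adjusted p = 0.0353). *Soat2*, which esterifies absorbed cholesterol, averaged 236 ± 75.4 CPM (SD, n = 4) in WT PF and 87.3 ± 6.01 CPM (SD, n = 3) in WT EtOH mice (log2 fold change -1.43, SE 0.27, adjusted p = 0.0311). *Abca1*, a basolateral cholesterol exporter, had 82.3, 79.7, 75 and 52.3 CPM in WT PF and 29.2, 45.6 and 35.1 CPM in WT EtOH mice (log2 fold change -0.98, SE 0.19, adjusted p = 0.0268). In all 3 the WT EtOH mice lay below the WT PF mice. None of the 9 tested genes of ileal bile acid handling was called with edgeR (1 at an unadjusted p under 0.05, 1 called by DESeq2 and 1 by limma voom), and their median was 0.31. *Fgf15*, the ileal hormone that bile acids induce, had 3.31, 1.88, 62.7 and 20.9 CPM in WT PF and 107, 20.1 and 64.1 CPM in WT EtOH mice (adjusted p = 0.461). It varied by more than 10-fold within the WT PF group, the groups overlapped, and 25.7% of its exon bases lie under a gene of the other strand.

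Retinoid genes were mixed, with 1 of 13 lower, 1 higher and a median of 0.14, or -0.18 without WT EtOH 1 and -0.08 without WT EtOH 2, when none was lower. *Rdh7*, a retinol dehydrogenase, had 57.2, 54.7, 50.9 and 20.2 CPM in WT PF and 9.55, 8.7 and 7.12 CPM in WT EtOH mice (log2 fold change -2.43, SE 0.39, adjusted p = 0.0244). *Isx*, a transcription factor that represses β-carotene uptake, had 136, 166, 144 and 168 CPM in WT PF and 213, 208 and 195 CPM in WT EtOH mice (log2 fold change 0.42, SE 0.10, adjusted p = 0.0337). Both separated the groups. *Rbp2*, the cellular retinol binding protein of enterocytes, had 1833, 1373, 968 and 284 CPM in WT PF and 157, 163 and 117 CPM in WT EtOH mice and was not called (adjusted p = 0.0537). Of 15 genes for vitamin, iron and calcium uptake, 1 fell and none rose (median -0.11), a share close to the 4.29% lower among all genes tested. *Amn*, which anchors the ileal receptor for cobalamin and its carrier, had 202, 245, 228 and 177 CPM in WT PF and 114, 129.5 and 97.2 CPM in WT EtOH mice (log2 fold change -0.90, SE 0.13, adjusted p = 0.0153). Its partner *Cubn* had 539.9, 328, 767 and 747 CPM in WT PF and 1224, 880.1 and 1070.4 CPM in WT EtOH mice, with every WT EtOH mouse above every WT PF mouse and no call (adjusted p = 0.109). *Slc23a1*, the vitamin C transporter, had 104, 73.8, 52.5 and 3.68 CPM in WT PF and 0.354, 0.311 and 0.248 CPM in WT EtOH mice. That is 10 reads in all in the WT EtOH mice and 36 in WT PF 4 against 483 to 973 in the other WT PF mice, and it was not called with 7 libraries (adjusted p = 0.0539).

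Genes that handle foreign compounds and hormones were lower more often than higher with all 7 mice in the fit. Of 16 cytochrome P450 genes tested, 4 fell and 1 rose (median log2 fold change -0.87), and of 17 conjugation enzymes, 3 fell and 1 rose (median -0.36). *Cyp2b10*, known as a target of the receptor CAR, had 114, 40.2, 49.1 and 9.72 CPM in WT PF and 1.06, 1.86 and 0.993 CPM in WT EtOH mice (log2 fold change -5.36, SE 1.11, adjusted p = 0.0462). *Cyp4v3*, which hydroxylates fatty acids, had 778, 648, 593 and 274 CPM in WT PF and 178, 154 and 170.0 CPM in WT EtOH mice (log2 fold change -1.77, SE 0.34, adjusted p = 0.0331). The other 2 that fell were *Cyp2u1* (-0.89 on the log2 scale, with 10.5% of its exon bases under a gene of the other strand) and *Cyp4f14* (-0.61 on the log2 scale). *Cyp3a44* rose, with means of 7.55 ± 3.4 CPM (SD, n = 4) in WT PF and 22.4 ± 5.1 CPM (SD, n = 3) in WT EtOH mice (log2 fold change 1.57, SE 0.37, adjusted p = 0.0473), and 11% of its 75-base windows also occur in another gene, so its counts are uncertain. The calls of the P450 list were level without WT EtOH 2, with 1 lower and 1 higher and none of the 5 just named among them, and without WT PF 4, 9 fell and 1 rose. Without any 1 of the other 5 mice, 0 or 1 fell and 0 or 1 rose.

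*Ugt2a3*, a glucuronosyltransferase, had 96.3, 72.1, 86.2 and 13.2 CPM in WT PF and 0.531, 0.932 and 0.827 CPM in WT EtOH mice (log2 fold change -6.44, SE 1.01, adjusted p = 0.0291). That is 6, 9 and 10 reads in the WT EtOH mice, and WT PF 4 was well below the other WT PF mice. The sulfotransferases *Sult1b1* (-1.11 on the log2 scale) and *Sult2b1* (-0.53) fell, and *Sult1c2* rose, with 3.95, 3.55, 4.56 and 3.07 CPM in WT PF and 7.87, 14.3 and 7.86 CPM in WT EtOH mice (log2 fold change 1.40, SE 0.25, adjusted p = 0.0189). Its highest value was in WT EtOH 2, and the groups did not overlap.

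Of 13 enzymes of ethanol breakdown tested, 2 fell and none rose, with a median log2 fold change of -0.17. Both calls were lost without any 1 of the 5 mice other than WT EtOH 2 and WT PF 4. *Cat*, catalase, had 206, 185, 184 and 145 CPM in WT PF and 123, 137 and 125 CPM in WT EtOH mice (log2 fold change -0.49, SE 0.12, adjusted p = 0.036). *Aldh9a1*, an aldehyde dehydrogenase, averaged 507 ± 53.4 CPM (SD, n = 4) in WT PF and 368 ± 15.8 CPM (SD, n = 3) in WT EtOH mice (log2 fold change -0.46, SE 0.10, adjusted p = 0.0329). The groups were separate for both. *Adh1*, alcohol dehydrogenase, had 169.6, 90.3, 65.7 and 28.6 CPM in WT PF and 25.8, 28.8 and 26.9 CPM in WT EtOH mice and was not called (adjusted p = 0.143). WT PF 4 lay among the WT EtOH mice for this gene. Of 17 genes for fatty acid oxidation and ketogenesis, 2 fell and 1 rose (median -0.10). *Cpt1a*, which admits fatty acids to mitochondria, rose, with 131, 123, 127 and 139.6 CPM in WT PF and 172, 196 and 193 CPM in WT EtOH mice (log2 fold change 0.53, SE 0.09, adjusted p = 0.0182). *Hadh*, of β-oxidation, averaged 639 ± 126 CPM (SD, n = 4) in WT PF and 408 ± 35.2 CPM (SD, n = 3) in WT EtOH mice (log2 fold change -0.65, SE 0.16, adjusted p = 0.0375). *Acot12*, an acetyl-CoA hydrolase, had 42.6, 34.8, 21.6 and 4.4 CPM in WT PF and 0.177, 1.04 and 1.32 CPM in WT EtOH mice (log2 fold change -4.91, SE 1.06, adjusted p = 0.0498). Each of the 3 separated the groups.

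None of the 9 tested genes of adenosine signalling was called with edgeR (4 at an unadjusted p under 0.05, 3 called by DESeq2 and 2 by limma voom), with a median of -0.41. *Ada*, which converts adenosine to inosine, had 496, 740.1, 423 and 165 CPM in WT PF and 147, 109 and 138 CPM in WT EtOH mice (adjusted p = 0.0812). *Adora2b*, an adenosine receptor, had 9.08, 5.76, 4.78 and 0.409 CPM in WT PF and 0.265, 0.828 and 0.414 CPM in WT EtOH mice (adjusted p = 0.0827). In both genes WT PF 4 was close to the WT EtOH mice, and without it 3 of the 9 fell.

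The regional markers and the absorptive enterocyte markers moved with these groups. Of 16 proximal small intestine markers tested, of 18 listed, 10 fell and none rose, and 12 had every WT EtOH mouse below every WT PF mouse (against 12% of all genes tested). The list shares *Lct*, *Slc2a2*, *Apoa4*, *Apoc3*, *Khk* and *Npc1l1*, among others, with the lists above. Its mean log2 CPM was 6.83, 6.30, 6.31 and 5.07 in the WT PF mice and 3.78, 3.76 and 3.69 in the WT EtOH mice, so WT PF 4 was the lowest WT PF mouse and still above the WT EtOH mice. Without WT EtOH 2, 2 of its members fell, and without WT PF 4, 12 did, while 0 to 2 fell without any 1 of the other 5 mice. Where along the ileum each piece was cut is not recorded in the labels, and the part of this list in the results on absorption was not tested.

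Of 10 absorptive enterocyte markers, 6 fell and none rose, 8 had every WT EtOH mouse below every WT PF mouse (against 12% of all genes tested), and the median log2 fold change was -1.02. The list shares *Sis*, *Anpep*, *Fabp2*, *Apoa1*, *Apob*, *Mttp* and *Slc5a1* with the lists above, so it is not a separate measure of them. *Alpi*, *Vil1* and *Krt20* are in no other list, and of these *Alpi* fell. Its mean log2 CPM was 12.05, 12.07, 12.04 and 11.46 in the WT PF mice and 11.16, 11.01 and 11.03 in the WT EtOH mice. Of the 10, 5 fell without WT EtOH 2, 8 without WT PF 4 and 0 or 1 without any 1 of the other 5 mice. Its part in the results on absorption was not tested.

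*Gata4*, the transcription factor that sets upper intestinal identity (chr14:63198922-63271692, GRCm38, minus strand), had 84.9, 86, 54.4 and 25.2 CPM in WT PF and 0.442, 0.518 and 0.165 CPM in WT EtOH mice (log2 fold change -7.37, SE 0.76, adjusted p = 0.0159). That is 12 reads in all in the WT EtOH mice and 2318 in the WT PF mice. Its relative *Gata6*, expressed along the whole small intestine, had 71.8, 80.3, 77.8 and 68.5 CPM in WT PF and 55.9, 50.7 and 58 CPM in WT EtOH mice (log2 fold change -0.44, SE 0.09, adjusted p = 0.024), a smaller decrease with no overlap. Among 18 intestinal transcription factors tested, 2 fell and 2 rose, with a median of -0.02, and *Hnf4a*, a regulator of enterocyte genes in general, averaged 1275 ± 82.6 CPM (SD, n = 4) in WT PF and 1121 ± 79.3 CPM (SD, n = 3) in WT EtOH mice (adjusted p = 0.268).

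Of 14 large intestine markers, 8 were tested, 2 rose and none fell. *Hoxb13*, *Hoxd13* and *Fxyd4* had no reads in any of the 7 mice. The median log2 fold change of the 8 was 2.13 with all mice and 0.13 without WT EtOH 2. Still, 2 of the 8 rose without WT EtOH 2, against 1 without WT PF 4 and 0 or 1 without any 1 of the other 5 mice. *Car1*, a colonic carbonic anhydrase, had 57.3, 0.111, 1.3 and 2.35 CPM in WT PF and 0.884, 3985 and 1.24 CPM in WT EtOH mice. WT EtOH 2 was far above every other mouse and WT PF 1 came next. *Slc37a2*, a sugar phosphate exchanger, had 1.6, 1.66, 2.5 and 2.35 CPM in WT PF and 2.3, 249 and 1.65 CPM in WT EtOH mice. *Cyp2c55*, a P450, had 19.8, 11.1, 25.5 and 27.4 CPM in WT PF and 23.7, 630.0 and 22.7 CPM in WT EtOH mice, and neither gene was called. *Retnlb*, a goblet cell product, rose in all 3 WT EtOH mice and is given with the goblet cell genes.

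Hox genes encode transcription factors that keep the position of a tissue along the body axis. Of 28 listed, 14 were tested, 7 rose and none fell, with a median log2 fold change of 0.98. The 7 were *Hoxb3* to *Hoxb9*, which lie side by side in 76.5 kb of chromosome 11 (chr11:96271457-96347930, GRCm38, plus strand). *Hoxb8* had 5.66, 3.55, 4.02 and 7.06 CPM in WT PF and 15, 17.3 and 15.8 CPM in WT EtOH mice (log2 fold change 1.66, SE 0.21, adjusted p = 0.01). *Hoxb5* had 7.8, 3.77, 6.62 and 5.83 CPM in WT PF and 17, 20.5 and 17.1 CPM in WT EtOH mice (log2 fold change 1.60, SE 0.20, adjusted p = 0.01). *Hoxb9*, at the posterior end of the run, had 23.6, 11.6, 17.7 and 25.9 CPM in WT PF and 63.3, 51.7 and 64.5 CPM in WT EtOH mice (log2 fold change 1.60, SE 0.24, adjusted p = 0.0189). The groups did not overlap in any of the 7, and WT PF 2 was the lowest mouse in each.

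The log2 fold changes of the 7 genes lay between 1.29 (*Hoxb7*) and 1.66 (*Hoxb8*). *Hoxb4* averaged 3.39 ± 0.849 CPM (SD, n = 4) in WT PF and 10.1 ± 1.21 CPM (SD, n = 3) in WT EtOH mice (log2 fold change 1.56, SE 0.21, adjusted p = 0.01). *Hoxb6* averaged 14 ± 4.49 CPM (SD, n = 4) in WT PF and 43.5 ± 6.43 CPM (SD, n = 3) in WT EtOH mice (log2 fold change 1.63, SE 0.23, adjusted p = 0.0181). *Hoxb3*, with 52.9% of its exon bases under a gene of the other strand, averaged 6.79 ± 2.41 CPM (SD, n = 4) in WT PF and 21.1 ± 2.94 CPM (SD, n = 3) in WT EtOH mice (log2 fold change 1.63, SE 0.25, adjusted p = 0.0174). *Hoxb7*, not among the genes the naming rule picks and chosen after its values were seen, had 8.23, 5.88, 7.93 and 9.72 CPM in WT PF and 18.7, 19 and 20.4 CPM in WT EtOH mice (log2 fold change 1.29, SE 0.16, adjusted p = 0.01). The next gene along the chromosome, *Hoxb2*, had 3.21, 1.33, 2.06 and 2.66 CPM in WT PF and 2.74, 1.97 and 2.48 CPM in WT EtOH mice, with overlapping groups (log2 fold change 0.05, SE 0.30, adjusted p = 0.92). *Hoxb1* and *Hoxb13* had no reads. All 7 were called without WT EtOH 2, without WT PF 2 and without WT PF 4, against 6 without WT PF 1, 5 without WT PF 3, 4 without WT EtOH 3 and 3 without WT EtOH 1. *Hoxb5*, *Hoxb7* and *Hoxb8* were called without each mouse in turn, and *Hoxb9* without 3 of the 7. Summed over the list, Hox genes had 57.4 to 99.9 CPM in WT PF mice and 213 to 220.3 CPM in WT EtOH mice.

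**Figure D4:**
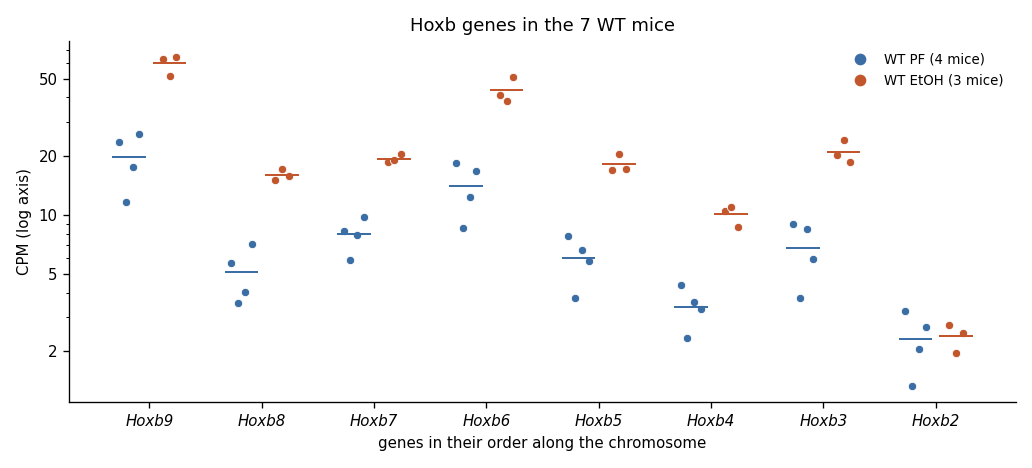
CPM (log axis) of the Hoxb genes in each WT mouse, in their order along chromosome 11, with group means as lines. The WT EtOH mice lie above the WT PF mice from *Hoxb9* to *Hoxb3*, and the groups overlap at *Hoxb2*.

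Goblet cell genes rose in part. Of 12 tested, 5 rose and none fell, with a median log2 fold change of 0.25. Without WT EtOH 2, 4 rose and none fell, without WT PF 4, 4 rose and 1 fell, and without any 1 of the other 5 mice 0 or 1 rose. *Muc2*, the gel-forming mucin, had 887, 1082, 964 and 1007 CPM in WT PF and 1825, 1996 and 1423 CPM in WT EtOH mice (log2 fold change 0.83, SE 0.13, adjusted p = 0.0171). *Clca1*, a secreted protease that processes mucus, had 2045, 2105, 2536 and 2507 CPM in WT PF and 4875, 3134 and 4295 CPM in WT EtOH mice (log2 fold change 0.84, SE 0.16, adjusted p = 0.0216). *Retnlb*, a defence protein of goblet cells, had 1.82, 0.554, 0.217 and 1.23 CPM in WT PF and 8.31, 36.1 and 8.52 CPM in WT EtOH mice (log2 fold change 4.17, SE 0.84, adjusted p = 0.0402). Each of the 3 separated the groups, and *Retnlb* was highest in WT EtOH 2. *Fer1l6*, of the ferlin family, averaged 40.6 ± 3.93 CPM (SD, n = 4) in WT PF and 62.4 ± 8.49 CPM (SD, n = 3) in WT EtOH mice (log2 fold change 0.62, SE 0.11, adjusted p = 0.0197). *Klk1*, a kallikrein that completes the 5 and was named after its values were seen, had 50, 68.6, 55.3 and 51.3 CPM in WT PF and 81.1, 100.4 and 70.5 CPM in WT EtOH mice (log2 fold change 0.58, SE 0.14, adjusted p = 0.0385). *Fcgbp*, a mucus protein, averaged 3253 ± 325 CPM (SD, n = 4) in WT PF and 4049 ± 149.8 CPM (SD, n = 3) in WT EtOH mice and was not called (adjusted p = 0.103).

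Tuft cell genes had a median log2 fold change of 0.85. Of 15 tested, 4 rose, none fell, and 14 had a positive fold change. None was called without any 1 of the mice other than WT EtOH 2 (5 rose without it) and WT PF 4 (4 rose). *Pou2f3*, the transcription factor that makes tuft cells, had 2.14, 1.44, 1.85 and 1.64 CPM in WT PF and 4.77, 3.62 and 3.06 CPM in WT EtOH mice (log2 fold change 1.11, SE 0.25, adjusted p = 0.0308). *Avil*, advillin of the tuft cell bundle, had 8.01, 6.65, 7.28 and 7.78 CPM in WT PF and 17, 11.7 and 13.1 CPM in WT EtOH mice (log2 fold change 0.91, SE 0.16, adjusted p = 0.0189). *Alox5*, of leukotriene synthesis, had 3.95, 1.44, 2.61 and 2.35 CPM in WT PF and 7.34, 4.14 and 5.87 CPM in WT EtOH mice (log2 fold change 1.16, SE 0.31, adjusted p = 0.0451). The groups did not overlap in these 3, and WT EtOH 1 was the highest mouse in each. *Itpr2*, a calcium channel of the endoplasmic reticulum that other cells also express, averaged 39.3 ± 10.5 CPM (SD, n = 4) in WT PF and 76.2 ± 14.4 CPM (SD, n = 3) in WT EtOH mice (log2 fold change 0.95, SE 0.22, adjusted p = 0.0397). *Dclk1*, the usual tuft cell marker, had 11.5, 6.65, 13 and 12.5 CPM in WT PF and 26.7, 13.1 and 21.7 CPM in WT EtOH mice, with WT EtOH 2 just above the highest WT PF mouse (adjusted p = 0.0762). *Sucnr1*, the succinate receptor, averaged 1.6 ± 0.345 CPM (SD, n = 4) in WT PF and 3.27 ± 1.23 CPM (SD, n = 3) in WT EtOH mice (adjusted p = 0.0589). The list summed to 112 to 150 CPM in WT PF mice and 183 to 271 CPM in WT EtOH mice.

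Of 9 Paneth cell genes tested, 1 fell and none rose (median -0.44), against 8.32% called among all genes tested. Leaving out WT EtOH 2 ended that call and moved the median to -0.22. The gene was the defensin *Defa17* (-0.54 on the log2 scale, adjusted p = 0.05), and 91.3% of its 75-base windows occur in other genes, so its counts are uncertain. *Lyz1*, lysozyme, had 8205, 11960.0, 9120.4 and 8779 CPM in WT PF and 6330.2, 3796 and 7728 CPM in WT EtOH mice. WT EtOH 2 was lowest, the groups did not overlap, and the gene was not called (adjusted p = 0.0956). Enteroendocrine genes split, with 2 higher and 2 lower of 14 tested and a median of -0.15. *Gip*, an upper intestinal incretin, had 40.4, 25.3, 20.2 and 8.09 CPM in WT PF and 1.15, 1.97 and 1.41 CPM in WT EtOH mice (log2 fold change -3.96, SE 0.66, adjusted p = 0.0267). *Cck*, cholecystokinin of the upper intestine, had 9.83, 7.65, 6.84 and 4.3 CPM in WT PF and 3.89, 3 and 3.81 CPM in WT EtOH mice (log2 fold change -0.99, SE 0.27, adjusted p = 0.0467). *Gcg*, the gene of the ileal hormone GLP-1, had 37, 26.4, 36.6 and 37.3 CPM in WT PF and 62.2, 40.6 and 64.5 CPM in WT EtOH mice (log2 fold change 0.70, SE 0.18, adjusted p = 0.0434). *Pyy*, peptide YY of the lower gut, had 26.7, 22.6, 26.2 and 33.7 CPM in WT PF and 38.9, 38.2 and 38.9 CPM in WT EtOH mice (log2 fold change 0.50, SE 0.13, adjusted p = 0.0395). All 4 separated the groups, and without WT EtOH 2 *Gip* and *Cck* were not called (adjusted p = 0.0581 and 0.084), nor was *Pyy* (adjusted p = 0.0515). Of 11 crypt stem cell genes, edgeR, DESeq2 and limma voom called none and none had an unadjusted p under 0.05 (median -0.05), and *Olfm4*, the most abundant of them, had 385, 412, 369.8 and 336 CPM in WT PF and 306, 183 and 503 CPM in WT EtOH mice, with overlap.

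**Figure D5:**
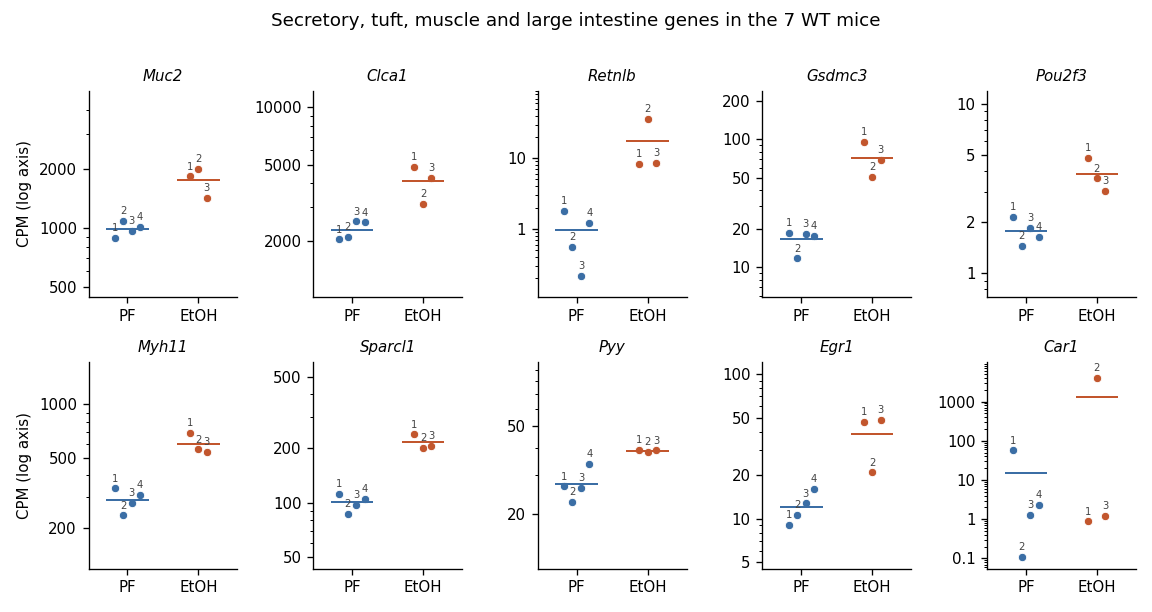
CPM (log axis) of goblet cell, defence, tuft cell, muscle, hormone and large intestine genes in each of the 7 WT mice, numbered, with group means as lines. The groups do not overlap except for *Car1*, where WT EtOH 2 alone is at 3985 CPM.

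Epithelial defence genes were mixed. Of 17 inducible defence genes tested, 3 rose and 1 fell, with a median log2 fold change of 0.49. The 3 are gasdermin C genes, members of a family of pore-forming proteins, and lie together on chromosome 15 (chr15:63824346-63912297, GRCm38, minus strand). *Gsdmc3* had 18.5, 11.8, 18.2 and 17.6 CPM in WT PF and 95.4, 50.5 and 68.9 CPM in WT EtOH mice (log2 fold change 2.12, SE 0.23, adjusted p = 0.0104). *Gsdmc2* had 53.7, 38.4, 48.5 and 48.3 CPM in WT PF and 187, 282 and 114 CPM in WT EtOH mice (log2 fold change 2.04, SE 0.29, adjusted p = 0.0201). *Gsdmc4* had 88.2, 58.4, 84.4 and 75.8 CPM in WT PF and 281, 371 and 205 CPM in WT EtOH mice (log2 fold change 1.90, SE 0.21, adjusted p = 0.0104). Every WT EtOH mouse was above every WT PF mouse in each, and *Gsdmc3* was called without each mouse in turn. Between 28.5% and 39.3% of their 75-base windows occur in another gene, so the 3 counts are not independent. *Ly6d* fell, with 9.4, 13.5, 10.6 and 14.3 CPM in WT PF and 7.6, 6.21 and 3.72 CPM in WT EtOH mice (log2 fold change -1.04, SE 0.25, adjusted p = 0.0356). *Lcn2*, which withholds iron from bacteria, averaged 5.44 ± 2.52 CPM (SD, n = 4) in WT PF and 1.89 ± 0.881 CPM (SD, n = 3) in WT EtOH mice, with overlapping groups (adjusted p = 0.084). *Slpi*, a protease inhibitor, averaged 12.8 ± 5.09 CPM (SD, n = 4) in WT PF and 5.58 ± 0.943 CPM (SD, n = 3) in WT EtOH mice, also with overlap (adjusted p = 0.057). *Reg3b*, an antibacterial lectin and the most abundant gene of the list, had 18903, 22698, 8491 and 20485 CPM in WT PF and 16879.5, 25633 and 23919.8 CPM in WT EtOH mice, and WT PF 3 was the lowest mouse.

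Of 13 Toll-like and free fatty acid receptors tested, 2 rose and 1 fell (median 0.36). *Tlr1*, which with TLR2 recognises bacterial lipopeptides, had 11.5, 9.09, 9.23 and 11.2 CPM in WT PF and 16.5, 26.9 and 19.1 CPM in WT EtOH mice (log2 fold change 1.02, SE 0.18, adjusted p = 0.0189), and 10.6% of its windows are shared with other genes, among them *Tlr6*. *Tlr3*, a receptor of double-stranded RNA, averaged 35.1 ± 3.42 CPM (SD, n = 4) in WT PF and 46.7 ± 2.56 CPM (SD, n = 3) in WT EtOH mice (log2 fold change 0.41, SE 0.10, adjusted p = 0.036). *Tlr12*, which binds a protozoan protein, averaged 7.36 ± 1.37 CPM (SD, n = 4) in WT PF and 4.5 ± 0.28 CPM (SD, n = 3) in WT EtOH mice (log2 fold change -0.70, SE 0.18, adjusted p = 0.0447). *Tlr2* was above the WT PF mice in all 3 WT EtOH mice, with 2.99, 1.66, 2.28 and 2.46 CPM in WT PF and 3.71, 13.5 and 4.3 CPM in WT EtOH mice, and was not called (adjusted p = 0.0798). Of the 3 that passed, *Tlr1* alone was called without WT EtOH 2.

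Immune cell genes had mostly negative fold changes with all 7 mice in the fit. The medians of the T cell and B cell lists turned with 1 mouse, to 0.03 for T cells without WT EtOH 1 and to 0.16 for B cells without WT EtOH 3. In the MHC class II list, 1 of 9 fell, against 8.32% called among all genes tested, all 9 had negative fold changes and the median was -0.55. *Ciita*, the master regulator of these genes, had 45.2, 38, 48.8 and 46.7 CPM in WT PF and 16.4, 30.3 and 28.3 CPM in WT EtOH mice (log2 fold change -0.83, SE 0.20, adjusted p = 0.0376). *Cd74*, the invariant chain, had 1787, 1769, 1403 and 1974 CPM in WT PF and 629, 1328 and 1464 CPM in WT EtOH mice (adjusted p = 0.196). WT EtOH 1 was the lowest mouse in both, and the *Cd74* groups overlapped. Of 12 macrophage genes tested, 2 fell and none rose (median -0.30). *C1qb*, of complement C1q, had 33.7, 35.9, 32.9 and 34.9 CPM in WT PF and 28.4, 21.9 and 25.1 CPM in WT EtOH mice (log2 fold change -0.45, SE 0.10, adjusted p = 0.0351). *Gzmb*, granzyme B of cytotoxic lymphocytes, had 19.7, 19.4, 15.6 and 21.1 CPM in WT PF and 8.05, 11.1 and 13.5 CPM in WT EtOH mice (log2 fold change -0.80, SE 0.18, adjusted p = 0.0309), and it was the 1 of 14 T cell genes called (median -0.21). No B cell gene of 12 was called by edgeR, DESeq2 or limma voom, with none at an unadjusted p under 0.05 (median -0.30). No plasma cell gene of 7 was called with edgeR (3 at an unadjusted p under 0.05, 1 called by DESeq2 and 1 by limma voom, median -0.42). The 12 B cell genes summed to 20.7 to 133 CPM in WT EtOH mice and 52.5 to 166 CPM in WT PF mice, so the ranges overlapped. Of 15 interferon-stimulated genes, 1 fell (median -0.23), *Isg15*, a ubiquitin-like modifier, with 28.7, 18.1, 14.8 and 14.3 CPM in WT PF and 9.2, 9.21 and 11.3 CPM in WT EtOH mice (log2 fold change -0.93, SE 0.25, adjusted p = 0.0496).

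Tight junction genes had a median log2 fold change of 0.08, and 2 of 17 rose and 1 fell. *Cldn8*, a sealing claudin of the lower gut, had 3.31, 2.33, 2.39 and 3.99 CPM in WT PF and 6.9, 6.21 and 14.5 CPM in WT EtOH mice (log2 fold change 1.62, SE 0.33, adjusted p = 0.0267). *Tjp1*, the scaffold ZO-1, had 116, 106, 127 and 132 CPM in WT PF and 169, 139.8 and 175 CPM in WT EtOH mice (log2 fold change 0.42, SE 0.11, adjusted p = 0.041). *Cldn15*, a sodium channel-forming claudin of the small intestine, had 716, 649.7, 538 and 384 CPM in WT PF and 312, 264 and 298 CPM in WT EtOH mice (log2 fold change -0.97, SE 0.19, adjusted p = 0.026). The groups did not overlap in these 3, and *Cldn7*, the most abundant of the list, overlapped between groups (adjusted p = 0.331). Of 14 genes of ion transport and guanylin signalling, 2 fell and none rose (median 0.11). *Guca2b*, uroguanylin, which opens chloride secretion, had 804, 752, 713 and 488 CPM in WT PF and 299, 353 and 265 CPM in WT EtOH mice (log2 fold change -1.17, SE 0.17, adjusted p = 0.0153). Every WT EtOH mouse was below every WT PF mouse.

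Most smooth muscle genes rose. Of 11 tested, 8 rose, none fell, all 11 had every WT EtOH mouse above every WT PF mouse (against 12.9% of all genes tested), and the median log2 fold change was 0.78. Of the 11, 10 rose without WT EtOH 2, 8 without WT PF 4, 5 without WT PF 1, 4 without WT PF 2, WT PF 3 or WT EtOH 3, and 2 without WT EtOH 1. *Myh11*, smooth muscle myosin, had 336, 236, 279 and 309.7 CPM in WT PF and 692, 557 and 539 CPM in WT EtOH mice (log2 fold change 1.04, SE 0.14, adjusted p = 0.01). *Cnn1*, calponin, had 105, 84.9, 85.8 and 97.3 CPM in WT PF and 219.7, 172 and 155 CPM in WT EtOH mice (log2 fold change 0.97, SE 0.13, adjusted p = 0.01). *Actg2*, enteric actin, had 161, 116, 115 and 132 CPM in WT PF and 325, 205 and 197 CPM in WT EtOH mice (log2 fold change 0.89, SE 0.19, adjusted p = 0.0348). WT EtOH 1 was the highest mouse in each. *Tagln*, transgelin, averaged 214 ± 23.5 CPM (SD, n = 4) in WT PF and 392 ± 46.9 CPM (SD, n = 3) in WT EtOH mice (log2 fold change 0.88, SE 0.12, adjusted p = 0.01), with 67.9% of its exon bases under a gene of the other strand, and *Mylk*, the kinase that starts contraction, averaged 455 ± 43.3 CPM (SD, n = 4) in WT PF and 581 ± 61.4 CPM (SD, n = 3) in WT EtOH mice and was not called (adjusted p = 0.0713). The list summed to 1542 to 2025 CPM in WT PF mice and 2689 to 3398 CPM in WT EtOH mice. How deep each piece of gut wall was cut is not in the labels, and its part in these values was not tested. *Sparcl1*, a matrix protein of muscle and vessel wall, had 112, 86.5, 97.5 and 105 CPM in WT PF and 239.5, 201 and 207 CPM in WT EtOH mice (log2 fold change 1.11, SE 0.11, adjusted p = 0.0028).

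Of 11 genes of enteric neurons and glia tested, 2 rose and none fell (median 0.42). *Nos1*, nitric oxide synthase of inhibitory neurons, had 0.962, 0.665, 1.41 and 1.43 CPM in WT PF and 3.01, 2.69 and 3.48 CPM in WT EtOH mice (log2 fold change 1.44, SE 0.29, adjusted p = 0.0238). *Stmn2*, a neuronal tubulin regulator, averaged 5.19 ± 0.617 CPM (SD, n = 4) in WT PF and 8.49 ± 1.05 CPM (SD, n = 3) in WT EtOH mice (log2 fold change 0.71, SE 0.16, adjusted p = 0.0337). *Gfap* and *Sox10*, markers of glia, had too few reads to test. Of 11 endothelial genes, 1 fell and none rose (median 0.07). It was *Plvap*, of fenestrated capillaries, which averaged 27.8 ± 5.68 CPM (SD, n = 4) in WT PF and 17.6 ± 1.74 CPM (SD, n = 3) in WT EtOH mice (log2 fold change -0.65, SE 0.16, adjusted p = 0.0378). None of the 8 adipocyte genes was called by edgeR, DESeq2 or limma voom, and none had an unadjusted p under 0.05 (median 0.31). They summed to 240.2 to 661 CPM in WT PF mice and 205 to 626 CPM in WT EtOH mice, so the level varied within both groups. *Hbb-bs*, a globin gene of red blood cells, had 8.01, 16.3, 13.7 and 24.9 CPM in WT PF and 9.02, 4.56 and 6.37 CPM in WT EtOH mice, with 51.5% of its windows shared with another gene and overlapping groups (adjusted p = 0.095). The 4 globin genes tested had a median of -1.25, and edgeR called none of them (2 at an unadjusted p under 0.05, 2 called by DESeq2 and none by limma voom).

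Proliferation and stress genes gave 0 or 1 call per list, against 8.32% called among all genes tested, and at these list sizes nothing is read from that. None of 19 cell cycle genes was called with edgeR (4 at an unadjusted p under 0.05, 2 called by DESeq2 and 4 by limma voom), 16 had positive fold changes and the median was 0.20. *Mki67* had 105, 104, 105 and 125 CPM in WT PF and 187, 119 and 212 CPM in WT EtOH mice, with WT EtOH 2 below WT PF 4 (adjusted p = 0.0509, and 0.00967 without WT EtOH 2, when 4 of the 19 rose). None of 15 circadian clock genes was called with edgeR (3 at an unadjusted p under 0.05, 2 called by DESeq2 and 2 by limma voom, median -0.11). In the unfolded protein response list 1 of 14 fell (median -0.02), *Atf4*, an amino acid stress factor, at 275 ± 38.8 CPM (SD, n = 4) in WT PF and 195 ± 30.7 CPM (SD, n = 3) in WT EtOH mice (log2 fold change -0.49, SE 0.13, adjusted p = 0.0486). Of 12 NRF2 targets 1 fell (median 0.09), *Gclm*, of glutathione synthesis, at 113 ± 22 CPM (SD, n = 4) in WT PF and 75 ± 1.99 CPM (SD, n = 3) in WT EtOH mice (log2 fold change -0.59, SE 0.15, adjusted p = 0.0397). Of 11 immediate early genes 1 rose (median 0.23), *Egr1*, with 9.08, 10.6, 12.8 and 16.1 CPM in WT PF and 46.7, 20.9 and 48.1 CPM in WT EtOH mice (log2 fold change 1.67, SE 0.32, adjusted p = 0.0321). WT EtOH 1 and WT EtOH 3 were highest for *Egr1*, and *Fosb* averaged 2.72 ± 1.11 CPM (SD, n = 4) in WT PF and 5.54 ± 4.05 CPM (SD, n = 3) in WT EtOH mice, with overlapping groups (adjusted p = 0.247).

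The 10 largest increases among DEGs also included genes with few reads. *Npy4r*, the receptor for pancreatic polypeptide, had 0.427, 0.111, 0.109 and 0.716 CPM in WT PF and 3.18, 2.59 and 2.4 CPM in WT EtOH mice (log2 fold change 2.93, SE 0.45, adjusted p = 0.0153). *Zbtb16*, the factor PLZF of innate-like lymphocytes, had 1.07, 1.66, 1.74 and 1.94 CPM in WT PF and 5.39, 6.83 and 11.7 CPM in WT EtOH mice (log2 fold change 2.31, SE 0.31, adjusted p = 0.01). *Acta1*, skeletal muscle actin, had 7.48, 9.76, 2.71 and 10 CPM in WT PF and 25.6, 29.2 and 67.2 CPM in WT EtOH mice (log2 fold change 2.44, SE 0.52, adjusted p = 0.0455). The groups were separate in all 3, and WT EtOH 3 was the highest mouse for *Zbtb16* and *Acta1*. *Npy4r* rests on 13 reads in the WT PF mice and 90 in the WT EtOH mice.

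The largest decreases included *Fam151a*, with 48.7, 191, 176 and 54.1 CPM in WT PF and 0.796, 1.14 and 0.414 CPM in WT EtOH mice (log2 fold change -7.24, SE 0.98, adjusted p = 0.0233). Of its exon bases, 65.7% lie under *Acot11* on the other strand. *Gimd1*, a GTPase of the GIMAP family, had 85.6, 103, 104 and 15.9 CPM in WT PF and 1.24, 3.42 and 2.23 CPM in WT EtOH mice (log2 fold change -5.08, SE 0.89, adjusted p = 0.0353). WT PF 4 lay between its group and the WT EtOH mice. *Gltpd2*, a glycolipid transfer domain protein, had 64 reads in the WT PF mice and 1 in the WT EtOH mice, a ratio of 56.6 after scaling by library size, with a 95% interval of 9.81 to 2271 that covers counting error only.

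Among the most abundant DEGs, *Ceacam1*, an adhesion molecule of the brush border, had 1072, 917, 947 and 1493 CPM in WT PF and 1597, 2281 and 1749 CPM in WT EtOH mice (log2 fold change 0.76, SE 0.19, adjusted p = 0.0406), with 24.5% of its windows shared with other genes, among them *Ceacam2* and *Ceacam10*. *Slc26a2*, a sulfate transporter, had 389, 327, 410.1 and 608 CPM in WT PF and 783, 777 and 682 CPM in WT EtOH mice (log2 fold change 0.79, SE 0.19, adjusted p = 0.0376). *Selenop*, the selenium carrier, had 7121, 6263, 7634 and 5502 CPM in WT PF and 4352, 4456 and 4365 CPM in WT EtOH mice (log2 fold change -0.59, SE 0.13, adjusted p = 0.0329), with 15.4% of its exon bases under a gene of the other strand. WT PF 4 was the WT PF mouse nearest to the WT EtOH mice in all 3.

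Whether the response to diet differed from that of fat-1 mice was tested as an interaction of genotype and diet over the 16 libraries. With edgeR no gene passed the test (lowest adjusted p = 0.595, 1141 genes at an unadjusted p under 0.05), and limma voom with quality weights also called none (lowest adjusted p = 0.481, 1259 genes at an unadjusted p under 0.05). Of 1095 DEGs of the WT mice that were also tested in fat-1 mice, 1082 (98.8%) had a fold change of the same sign there, against 79.2% of all genes. The mice of these comparisons are different animals. Of the 1103 DEGs, 158 had an edgeR interaction p under 0.05 unadjusted, against 1141 of all 13811 genes tested. The fat-1 EtOH group had a larger spread than the WT groups in earlier results of these data. The lack of a call therefore does not show that both genotypes responded alike. *Hoxb8*, for example, had a log2 fold change of 1.66 in WT mice and 3.47 in fat-1 mice.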

How the data were processed

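Deposited values are counts of read pairs per gene, which the authors made by aligning paired 75-base reads of poly(A) stranded libraries to mm10 and counting on Ensembl genes with htseq; its strand setting is not given in the sources used here. The submitters' notes also name FastQC 0.10.1, Cufflinks and the build ce10. Groups came from genotype and diet in the labels. edgeR 4.0.16 (R 4.3.3) was applied to the 7 WT libraries: filterByExpr, TMM scaling, the quasi-likelihood test with robust dispersion, Benjamini-Hochberg adjustment, 5 residual degrees of freedom. CPM are counts scaled by TMM-adjusted library size to 1e+06, in which 3 reads are 0.248 to 0.333 CPM. SE is the log2 fold change over the root of F. Replicates are separate mice. Alternatives used DESeq2 1.42.0, limma 3.58.1, other scalings, filters and samples. On simulated counts of 13250 genes, 71 of 100 genes changed 2-fold, 93 of 100 changed 4-fold and 12 of 13050 unchanged genes were called. Those counts were drawn gene by gene, with no mouse that differs from its group over many genes. WT PF 4 and WT EtOH 2 did differ in that way, so the simulated rates need not hold for the data. Members, lists and the naming rule were chosen with earlier results of these data known. The fit of the 7 WT libraries was likewise chosen with the DEG counts of both it and the 16-library fit known. Genes named were, per list, up to 4 DEGs of largest change and the most abundant member, the 10 DEGs of largest change in each direction, the 5 most abundant DEGs in each direction, DEGs of the 16-library fit, and genes the study names for WT mice. Windows of 75 bases, exon overlap and promoters came from GRCm38 annotation and RefSeq sequence. Promoter windows matched 10453 of 13249 tested symbols. A few genes that the naming rule picks are not reported here.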

Additional observations from a re-analysis of the deposited data

Results flagged for a closer look

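In 176 named genes and 45 list means, the highest or lowest of the 4 WT PF mice was tested for a gap to its nearest neighbour. The gap, taken on the log scale, had to exceed Dixon's 95% critical share of the group's range. Chance passes that share in about 1 of 20 groups, and the 3 WT EtOH mice are too few for this. Such a gap was found in 13 of the 176 genes, 10 of them in WT PF 4, and in 6 of the 45 list means, 3 of them in WT PF 4. Genes and lists overlap and are not independent, so these counts were not tested against chance. WT PF 4 was the lowest for *Acsl5* (1194 CPM), *Apoa1* (5916 CPM), *Dgat1* (534 CPM), *Gimd1* (15.9 CPM), *Npc1l1* (838 CPM), *Nt5e* (42.4 CPM), *Rdh7* (20.2 CPM), *Sult1b1* (300.1 CPM) and *Ugt2a3* (13.2 CPM), and the highest for the proliferation marker *Mki67* (125 CPM). *Nt5e*, which makes adenosine outside cells, had 143, 173, 153 and 42.4 CPM in WT PF and 53.6, 26.2 and 33.9 CPM in WT EtOH mice and was not called with edgeR (adjusted p = 0.107).

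WT PF 4 was also the lowest WT PF mouse in the mean log2 CPM of the lists of fatty acid uptake and triglyceride synthesis (8.06), adenosine signalling (3.41) and absorptive enterocytes (11.46). WT PF 2 was the lowest for *Gcg* (26.4 CPM), *Gsdmc3* (11.8 CPM) and *Pparg* (7.65 CPM), and the highest for the Paneth cell (9.15) and plasma cell (4.78) lists. WT PF 1 was set apart in the T cell list (3.07).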

How the results depend on the processing

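The count of 1103 DEGs (534 higher and 569 lower) was 11 (1 higher and 10 lower) in the fit of 16 libraries, 1730 with 1005 lower by DESeq2's Wald test, 2673 (1317 and 1356) by limma voom with quality weights, and 3059 (1367 and 1692) without both WT EtOH 2 and WT PF 4, an alternative chosen after seeing the data. Leaving out 1 mouse at a time gave 25 to 2242 DEGs, 16 to 967 higher and 9 to 1275 lower. DESeq2 size factors, upper-quartile scaling, a looser and a stricter filter gave 1156, 1146, 1078 and 1109; with upper-quartile scaling the median over all tested genes was 0.06 in place of 0.02 on the log2 scale. The cause of these differences was not tested, beyond the fewer mice or added libraries that define the settings. Mouse numbers do not pair the groups: deviations of same-numbered mice correlated at -0.116, -0.00917 and 0.0923, and not every mouse correlated best with its own number. A fit with the mouse number as a replicate block called 2286 DEGs (989 higher and 1297 lower). Of the 116 named genes that were DEGs, 106 lost their call in the fit of 16 libraries, 46 without WT EtOH 2, 4 without WT PF 4 and 107 without WT EtOH 1, and none of the 177 named genes turned from a called increase to a decrease or the reverse under any alternative run. Genes with few reads in WT EtOH mice, such as *Lct* and *Gltpd2*, have fold changes that depth limits.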

Other observations

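The 20 DEGs that were called without each of the 7 mice in turn, 14 higher and 6 lower, include genes outside the lists, picked here after their values were seen. *Wdfy1*, an adaptor of Toll-like receptor signalling, had 22.4, 23.3, 20.7 and 20.2 CPM in WT PF and 43.4, 49.5 and 50.6 CPM in WT EtOH mice (log2 fold change 1.15, SE 0.10, adjusted p = 0.00175). *Fbxo32*, a ubiquitin ligase known from muscle, had 33.9, 32.3, 20.9 and 28.6 CPM in WT PF and 65.6, 97.7 and 67.8 CPM in WT EtOH mice (log2 fold change 1.42, SE 0.19, adjusted p = 0.0153). *Vav3*, a signalling protein of the Vav family, had 3.31, 2.44, 2.28 and 2.56 CPM in WT PF and 6.54, 11.9 and 8.52 CPM in WT EtOH mice (log2 fold change 1.76, SE 0.24, adjusted p = 0.0104). The groups did not overlap for any of these. *Entpd7*, which hydrolyses nucleoside triphosphates, had 103, 101, 101 and 79.8 CPM in WT PF and 44.8, 42.1 and 41.2 CPM in WT EtOH mice (log2 fold change -1.17, SE 0.10, adjusted p = 0.00175). *Plbd1*, a phospholipase B-like protein, had 142, 159.9, 162 and 124 CPM in WT PF and 87.7, 81.3 and 83.5 CPM in WT EtOH mice (log2 fold change -0.80, SE 0.10, adjusted p = 0.01). *Gm11127*, a predicted MHC class I gene with 53% of its windows in another gene, had 45.6, 41.7, 31.3 and 27.9 CPM in WT PF and 13.7, 12.8 and 13.8 CPM in WT EtOH mice (log2 fold change -1.44, SE 0.17, adjusted p = 0.01). In these 3 every WT EtOH mouse was below every WT PF mouse.

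Several genes were far higher in WT EtOH 2 than in the other 6 mice, and none of them was called with edgeR. *Abca12*, a lipid transporter, had 1.82, 0.665, 0.977 and 0.614 CPM in WT PF and 1.59, 41 and 5.71 CPM in WT EtOH mice (adjusted p = 0.119). *Fa2h*, which makes hydroxylated sphingolipids, had 3.95, 1.77, 2.61 and 4.3 CPM in WT PF and 9.46, 66.5 and 10.4 CPM in WT EtOH mice (adjusted p = 0.0895). *Cbs*, which makes hydrogen sulfide, had 1.39, 1.22, 1.74 and 0.921 CPM in WT PF and 2.3, 20.4 and 4.14 CPM in WT EtOH mice (adjusted p = 0.0992). *Ethe1*, which takes part in its oxidation, had 31.4, 33.1, 32.6 and 35 CPM in WT PF and 44.7, 200.4 and 47.2 CPM in WT EtOH mice (adjusted p = 0.162). Without WT EtOH 2, *Fa2h*, *Cbs* and *Ethe1* were called as higher (adjusted p = 0.0182, 0.0465 and 0.0219), and in all 3 WT EtOH 1 and WT EtOH 3 also lay above the WT PF mice.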
